A study of Mus musculus with 6 samples.

Results

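Amino acid and peptide transporters are membrane carriers of the solute carrier (Slc) gene families, and 66 of the 51912 genes in the deposited table belong to the 8 families followed here: Slc1a, Slc3a, Slc6a, Slc7a, Slc15a, Slc36a, Slc38a and Slc43a. Members were chosen by gene symbol alone (a family name followed by a number in GENCODE M21), a rule that uses no measured value, although the families were picked with earlier results of these data known. The 2 groups were R1 mouse embryonic stem cells, an established line, in N2B27 medium with 100 ng/ml FGF2 for 24 h or for 48 h, with 3 replicates each, and all of them had first been held in the naive state in 2iLIF. R1 is a single line, the sources used here do not say whether replicates were separate cultures, and p-values then measure only the spread between these libraries. Every group received FGF2 together with the new medium, so time, medium and growth factor cannot be told apart. FGF2 is a growth factor that signals through ERK in these cells, and 2iLIF is a medium with inhibitors of MEK and GSK3 and the cytokine LIF.

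A cell takes up amino acids through carriers that differ in substrate and in what drives them. Some use the sodium gradient and concentrate their substrate (Slc1a, Slc6a and Slc38a). Some use protons (Slc15a and part of Slc36a), and many exchange an amino acid inside for another outside (much of Slc7a). The Slc7a exchangers reach the surface bound to a heavy chain of the Slc3a family. Mouse embryonic stem cells are known for a high demand for glutamine and threonine, and amino acid supply feeds both protein synthesis and the mTORC1 growth pathway. The name of the set is wider than its members, since Slc6a6 carries taurine, Slc6a8 carries creatine and Slc43a3 carries purine bases.

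The libraries held 19574969 to 23133148 estimated counts. Pairs of replicates differed by more than counting noise, with a chi-square of 1.84 to 2.29 per degree of freedom. All 8 pluripotency markers checked were above 1 CPM (counts scaled to a common library total after TMM, a correction for library composition), with sums of 4410.7 to 4510.0 CPM at 24 h and 2924.6 to 3004.4 CPM at 48 h. These markers did not move alike. Only Utf1 (201.6 and then 304.8 CPM) and Dppa4 (122.0 and then 157.9 CPM) had a higher mean at 48 h. Nanog went from 694.7 to 174.4 CPM, Zfp42 from 1034.4 to 494.6 CPM and Esrrb from 568.8 to 204.8 CPM, while Pou5f1 had 1111.3 and 1058.3 CPM. Of 6 markers each for other cell types, 5 neural, 2 primitive endoderm, 2 trophoblast and 2 fibroblast markers reached a mean of 1 CPM. The neural sum was 108.9 to 119.1 CPM at 24 h and 137.3 to 145.8 CPM at 48 h. The other sums were lower at 48 h, with 5.62 to 6.27 against 9.06 to 10.6 CPM for primitive endoderm, 18.7 to 19.7 against 36.3 to 39.1 CPM for trophoblast and 2.07 to 3.02 against 4.05 to 6.02 CPM for fibroblasts. In the trophoblast sum the mean of Krt8 went from 20.6 to 5.26 CPM and that of Eomes from 16.1 to 13.2 CPM. Postn was at 0 in every library. The part of these cell types in the transporter results was not tested, and in bulk RNA fewer cells of a type and less RNA per cell cannot be told apart.

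Of the 66 transporter genes, 37 had enough counts to be tested, and 29 of these changed between 24 h and 48 h (quasi-likelihood test of edgeR, with the adjusted p under 0.05 over all 14889 genes tested). That is 78.4% of the tested transporters, beside a background of 62.8% of all genes tested. The changed genes were 14 that were higher at 48 h (background 30.9%) and 15 that were lower (background 31.9%). On the log2 scale the median ratio of 48 h to 24 h, called the log2 ratio below, was -0.03 over the tested transporters and -0.01 over all genes tested, while the median size regardless of direction was 0.55 against 0.26. An increase of at least 2-fold was found for 1 transporter (background 4.59%) and a decrease of at least 2-fold for 6 (background 6.63%). For 31 of the 37 the values of the 2 times did not overlap (background 66.9%). Of the tested genes 1, Slc7a4, had a mean under 10 counts at one of the times and passed the filter through the other.

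The plot of fold changes by family shows the directions found within each family.

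**Figure D1:**
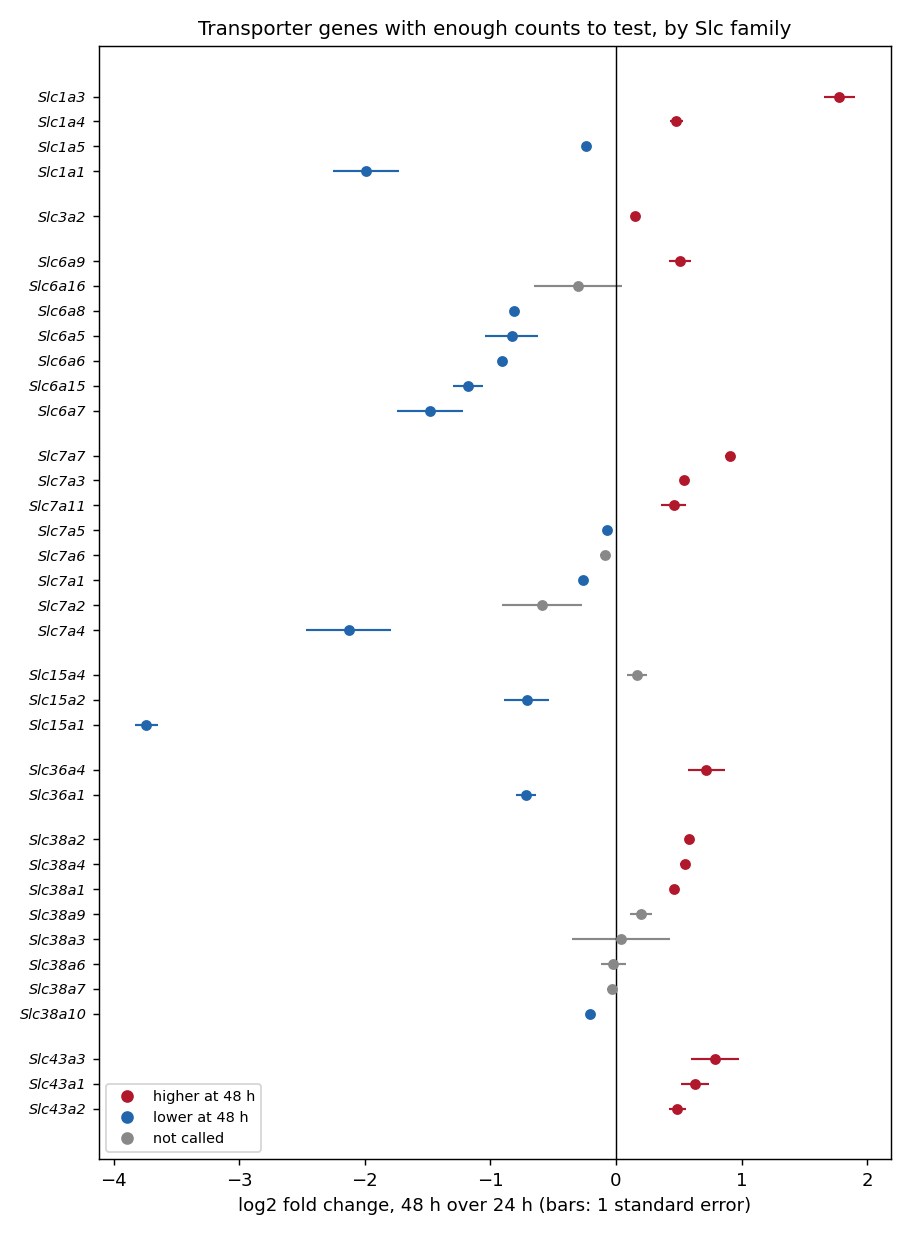
Log2 ratio (48 h over 24 h) of 36 of the 37 tested transporter genes, grouped by Slc family, with bars of 1 standard error. Most Slc6a genes shown were lower at 48 h, the 3 Slc43a genes were higher, and Slc15a1 lies farthest from 0.

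The counts by family are to be read beside all genes tested, of which 30.9% were higher and 31.9% lower, with a median log2 ratio of -0.01. Slc6a was the family with the most decreases, 6 of 8 tested genes against 1 increase, with a median log2 ratio of -0.87. Slc15a had 2 decreases among 3 tested genes. All 3 Slc43a genes rose, with a median of 0.63. In Slc38a 3 of 8 tested genes rose and 1 fell, and in Slc7a 3 rose and 3 fell of 8. Slc1a had 2 increases and 2 decreases among 4 tested genes, Slc36a 1 of each, and the tested gene of Slc3a rose. The families hold few genes and no test compared them with each other.

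The other 29 transporter genes were not tested, and the highest count of any of them in any library was 11. They were 11 of the 19 Slc6a genes, 7 of the 15 Slc7a genes, 3 of the 7 Slc1a genes, 3 of the 11 Slc38a genes, 2 of the 5 Slc15a genes, 2 of the 4 Slc36a genes and 1 of the 2 Slc3a genes. Among them were the serotonin, dopamine and noradrenaline transporters (Slc6a4, Slc6a3 and Slc6a2), the glial glutamate transporter Slc1a2 and the kidney cystine transporter pair Slc3a1 and Slc7a9. Slc6a18, Slc7a12, Slc7a15 and Slc36a3 had 0 counts in every library, which at 3 counts as the limit allows a level of up to 0.127 to 0.15 CPM depending on the library, for counting error only.

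Promoter sequences are shown for the cystine carrier Slc7a11, the alanine and serine carrier Slc1a4 and the cationic and neutral amino acid exchanger Slc7a7. These 3 are the tested transporters with a promoter window that holds a C/EBP-ATF response element. All 3 were higher at 48 h, as were 14 of the 37 tested transporters and 30.9% of all genes tested. The element was picked with these fold changes known, and its part in them was not tested. This element is the sequence through which the transcription factor ATF4 acts on genes when amino acids are short. The promoter table from RefSeq (GRCm38.p6) holds windows of 300 bases, from 250 before to 50 after an annotated start, for 47 of the 66 transporter genes. Capitals mark each match to TGATGNAA on either strand. The regions are chr3:50443614-50443863 for Slc7a11, chr11:20332710-20332963 for Slc1a4 and chr14:54417938-54418194 for Slc7a7, all on the minus strand and written 5′ to 3′ along the gene.
Slc7a11: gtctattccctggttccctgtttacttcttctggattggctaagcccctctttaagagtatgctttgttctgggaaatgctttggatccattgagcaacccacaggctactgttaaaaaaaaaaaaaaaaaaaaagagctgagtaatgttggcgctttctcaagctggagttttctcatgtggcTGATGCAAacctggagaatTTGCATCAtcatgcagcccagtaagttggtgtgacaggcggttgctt
Slc1a4: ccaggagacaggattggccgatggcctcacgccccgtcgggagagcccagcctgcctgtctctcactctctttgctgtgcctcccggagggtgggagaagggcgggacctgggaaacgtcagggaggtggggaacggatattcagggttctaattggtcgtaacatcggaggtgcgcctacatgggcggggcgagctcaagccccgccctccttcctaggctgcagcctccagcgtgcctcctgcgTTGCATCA
Slc7a7: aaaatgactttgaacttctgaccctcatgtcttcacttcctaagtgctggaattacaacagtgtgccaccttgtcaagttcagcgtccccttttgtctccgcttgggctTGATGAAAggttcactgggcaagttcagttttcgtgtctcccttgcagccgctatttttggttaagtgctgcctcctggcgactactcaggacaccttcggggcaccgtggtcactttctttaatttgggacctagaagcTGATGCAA

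In Slc7a11 the matches begin 66 and 47 bases before the start, on opposite strands. The match in Slc1a4 begins 4 bases before the start, and those in Slc7a7 begin 141 bases and 1 base before a RefSeq start that lies upstream of the GENCODE gene. A second RefSeq start of Slc7a7 has the latter match in its window too. TGATGNAA occurred in 6 of the 68 windows of transporter genes, against 3.97% of all 32851 windows, and in 3 of the 24 tested transporters with a window. The other 2 genes with a match, Slc15a5 and Slc6a21, had too few counts to test. Of the other motifs searched on both strands, the E-box CACGTG was in 9 of the 68 windows (7.15% of all windows), the AP-1 element TGACTCA in 5 (5.2%) and the TCF/LEF element CTTTGATC in 1 (0.938%). The motifs were chosen with the fold changes known. A match describes the letters only, and neither binding nor use of these sites was measured.

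Levels of different genes were compared as CPM per kilobase of annotated exon. The divisor takes in every exon of every annotated transcript, so a gene with long alternative exons is divided by more bases than any of its transcripts holds. The 10 highest transporter genes held 86.3% ± 0.0149 of the summed level of all 66 at 24 h and 87.3% ± 0.253 at 48 h (SD, n = 3). At 24 h the order of the mean level per kilobase was Slc7a5 (161.4), Slc3a2 (92.1), Slc7a3 (80.3), Slc6a6 (60.9) and Slc38a2 (48.1). At 48 h it was Slc7a5 (153.4), Slc7a3 (116.9), Slc3a2 (102.1), Slc38a2 (72.1) and Slc7a7 (47.2), with Slc6a6 at 32.4.

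**Figure D2:**
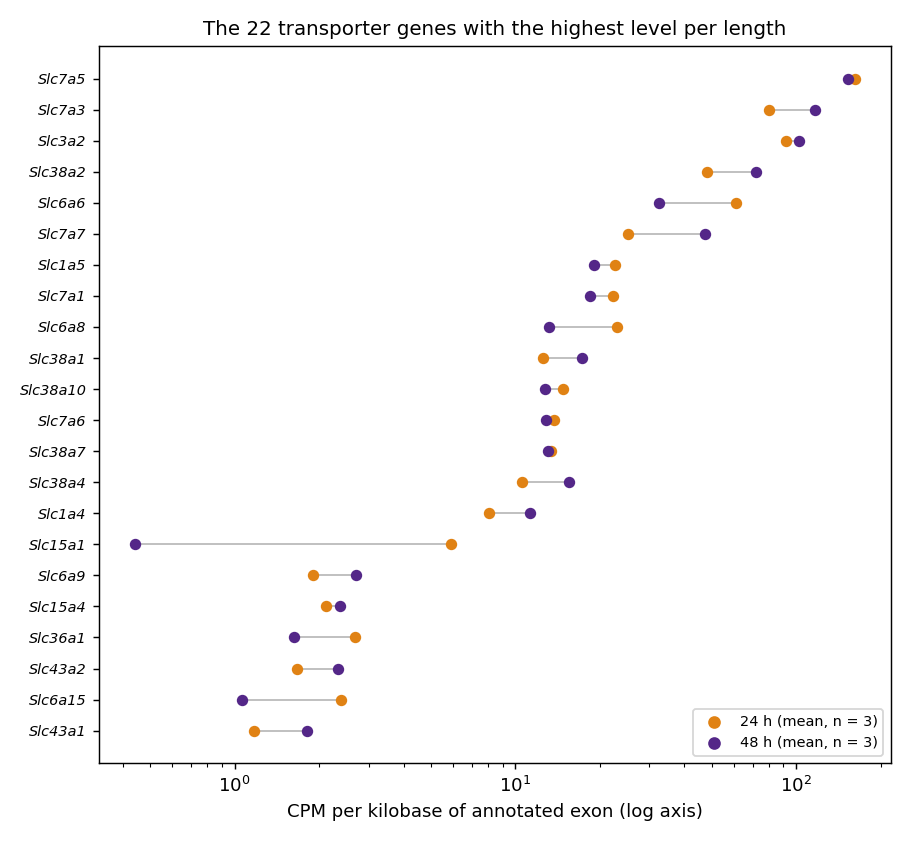
Mean level at 24 h and 48 h (n = 3 each) of the 22 transporter genes highest per length, in CPM per kilobase of annotated exon on a log axis. Slc7a5 is highest at both times at 161.4 and 153.4, and Slc15a1 moves from 5.91 to 0.442.

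Among the heteromeric exchangers, the heavy chain Slc3a2 (ENSMUSG00000010095) and the light chain Slc7a5, which with it forms the main exchanger for leucine and other large neutral amino acids, changed little. Slc3a2 had 330.8, 321.1 and 323.7 CPM in the 24 h libraries and 362.2, 359.1 and 359.2 CPM in the 48 h libraries. The 48 h values all lay above the 24 h values, and the log2 ratio was 0.15 ± 0.02 (standard error, as after every log2 ratio below; adjusted p = 3.5e-06, edgeR). Slc7a5 (ENSMUSG00000040010) had 600.3, 593.8 and 601.5 CPM at 24 h and 576.9, 564.9 and 565.2 CPM at 48 h. It was slightly lower in all 48 h libraries, by 0.07 ± 0.02 on the log2 scale (adjusted p = 0.00109). Both changes are of the size that the scaling moves: with library size as the only scaling they became 0.09 and -0.13.

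The light chain Slc7a7 (ENSMUSG00000000958), which exports arginine and lysine in exchange for neutral amino acids and sodium, rose most in its family. Its level was 86.4, 87.4 and 76.8 CPM at 24 h and 160.3, 158.2 and 150.8 CPM at 48 h, a 1.88-fold increase (log2 ratio 0.91 ± 0.04, adjusted p = 5.84e-12). Slc7a11 (ENSMUSG00000027737), the light chain that takes up cystine for glutathione synthesis in exchange for glutamate, had 9.86, 8.2 and 11.3 CPM at 24 h and 12.6, 13.7 and 14.2 CPM at 48 h. These groups did not overlap, though the spread at 24 h was wide, and the log2 ratio was 0.46 ± 0.1 (adjusted p = 0.000982). Slc7a6, a close relative of Slc7a7, had 62.6 ± 1.85 CPM at 24 h and 58.7 ± 2.62 CPM at 48 h (SD, n = 3) with overlapping values and did not pass the test (log2 ratio -0.09 ± 0.04, adjusted p = 0.0546). Of the 6 light chains that pair with Slc3a2 (Slc7a5, Slc7a6, Slc7a7, Slc7a8, Slc7a10 and Slc7a11), Slc7a5 held 80.3% ± 0.815 of the summed level per kilobase at 24 h and 71.5% ± 0.391 at 48 h. The share of Slc7a7 was 12.5% ± 0.817 and 22% ± 0.456. Their sum was 218.3% ± 2.84 of the level of Slc3a2 at 24 h and 210.2% ± 2.37 at 48 h.

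The uniporters for arginine and lysine moved in opposite directions. Slc7a3 (ENSMUSG00000031297) rose from 304.0, 309.4 and 298.3 CPM to 444.1, 447.8 and 435.6 CPM, a log2 ratio of 0.54 ± 0.02 (adjusted p = 4.7e-13). Slc7a1 (ENSMUSG00000041313), the broadly expressed member of this subgroup, fell from 256.0, 251.9 and 260.3 CPM to 221.5, 208.2 and 210.3 CPM, a log2 ratio of -0.26 ± 0.02 (adjusted p = 9.88e-08). Neither gene had overlapping groups. Slc7a2 was near 1 CPM with overlapping values (log2 ratio -0.59 ± 0.32, adjusted p = 0.113) and without replicate 3 of 24 h its log2 ratio was -0.9 (adjusted p = 0.0146). Slc7a3 thereby made up 78.2% ± 0.546 of the level per kilobase of these 3 genes at 24 h and 86.3% ± 0.403 at 48 h (SD, n = 3). Slc7a4, a related protein for which no clear transport activity is known, fell from 1.21 ± 0.153 to 0.273 ± 0.0437 CPM, which is 26.0 and 6.0 counts on average (log2 ratio -2.13 ± 0.34, adjusted p = 3.94e-05).

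**Figure D3:**
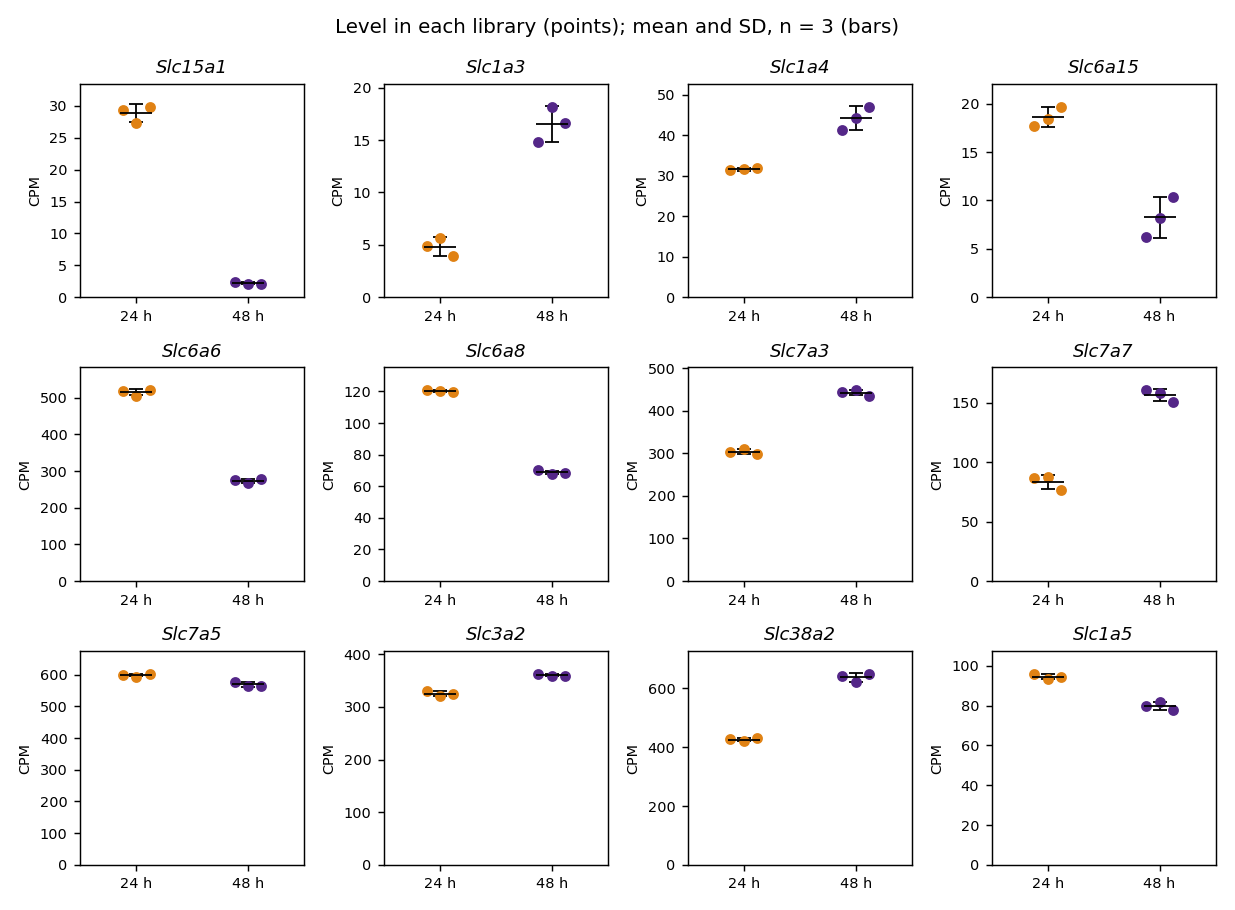
Level in CPM of 12 transporter genes in each of the 3 libraries at 24 h and 48 h (points), with the mean and SD (bars) on axes that start at 0. All 12 were picked among the genes called as changed, and their 24 h and 48 h points do not overlap (background 66.9% of all genes tested). The gap is widest in proportion for Slc15a1 and narrow for Slc7a5.

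The sodium-coupled neutral amino acid carriers of the Slc38a family had 3 members that rose by similar amounts. Slc38a2 (ENSMUSG00000022462), a glutamine and alanine carrier known to be induced when amino acids are short, had 426.4, 420.3 and 429.9 CPM at 24 h and 642.9, 621.3 and 648.3 CPM at 48 h (log2 ratio 0.58 ± 0.02, adjusted p = 1.24e-13). Slc38a1 rose from 215.1 ± 5.96 to 295.7 ± 6.68 CPM (SD, n = 3; log2 ratio 0.46 ± 0.02) and Slc38a4 from 45.2 ± 1.85 to 66.1 ± 1.06 CPM (0.55 ± 0.04). These 3 genes form the system A subgroup, and they lie near each other on the minus strand of chromosome 15, at chr15:96571418-96642913 (Slc38a1), chr15:96687392-96699730 (Slc38a2) and chr15:96994820-97055956 (Slc38a4) in GENCODE M21 on GRCm38. Slc38a2 made up 67.6% ± 0.688 of their level per kilobase at 24 h and 68.8% ± 0.867 at 48 h.

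The other tested members of the family changed less on the log2 scale. Slc38a9 (ENSMUSG00000047789), the lysosomal arginine sensor upstream of mTORC1, had 9.31, 8.11 and 8.6 CPM at 24 h and 9.71, 10.3 and 9.74 CPM at 48 h. The groups did not overlap, but the difference did not pass the test (log2 ratio 0.20 ± 0.09, adjusted p = 0.064), and it did without replicate 1 of 24 h (0.25, adjusted p = 0.0401). Slc38a7, a lysosomal glutamine exporter, had 55.6 ± 1.71 and 54.2 ± 1.15 CPM (adjusted p = 0.434). Slc38a6 and Slc38a3 did not pass the test either (adjusted p = 0.877 and 0.93). Slc38a10 fell from 94.9 ± 1.89 to 82.2 ± 2.96 CPM (log2 ratio -0.21 ± 0.03, adjusted p = 3.58e-05).

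In the Slc6a family the taurine carrier Slc6a6 (ENSMUSG00000030096) was the highest member. Its level was 518.9, 505.9 and 520.5 CPM at 24 h and 275.1, 268.0 and 278.0 CPM at 48 h, a 1.88-fold decrease (log2 ratio -0.91 ± 0.02, adjusted p = 7.21e-16). The creatine carrier Slc6a8 fell from 120.3 ± 0.387 to 68.8 ± 1.1 CPM (SD, n = 3; log2 ratio -0.81 ± 0.03). Slc6a15 (ENSMUSG00000019894), a carrier of branched-chain amino acids and proline, had 17.7, 18.4 and 19.7 CPM at 24 h and 6.17, 8.14 and 10.4 CPM at 48 h. Its 48 h libraries were the most spread in proportion among the 12 plotted genes, all of them below the 24 h libraries (log2 ratio -1.18 ± 0.12, adjusted p = 4.07e-07).

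The proline carrier Slc6a7 and the glycine carrier Slc6a5 also fell, from 2.12 ± 0.381 to 0.761 ± 0.21 CPM and from 2.36 ± 0.185 to 1.32 ± 0.287 CPM (log2 ratios -1.48 ± 0.26 and -0.83 ± 0.21). Both are low genes, with 16.7 and 29.0 counts on average at 48 h. Slc6a9, the other glycine carrier, was the exception in the family and rose from 9.75 ± 0.588 to 13.9 ± 1.06 CPM (log2 ratio 0.51 ± 0.09, adjusted p = 6.52e-05). Slc6a16, which has no known substrate, was under 1 CPM and did not pass the test (adjusted p = 0.471). The family as a whole held 14.4% ± 0.179 of the summed transporter level per kilobase at 24 h and 7.5% ± 0.109 at 48 h.

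**Figure D4:**
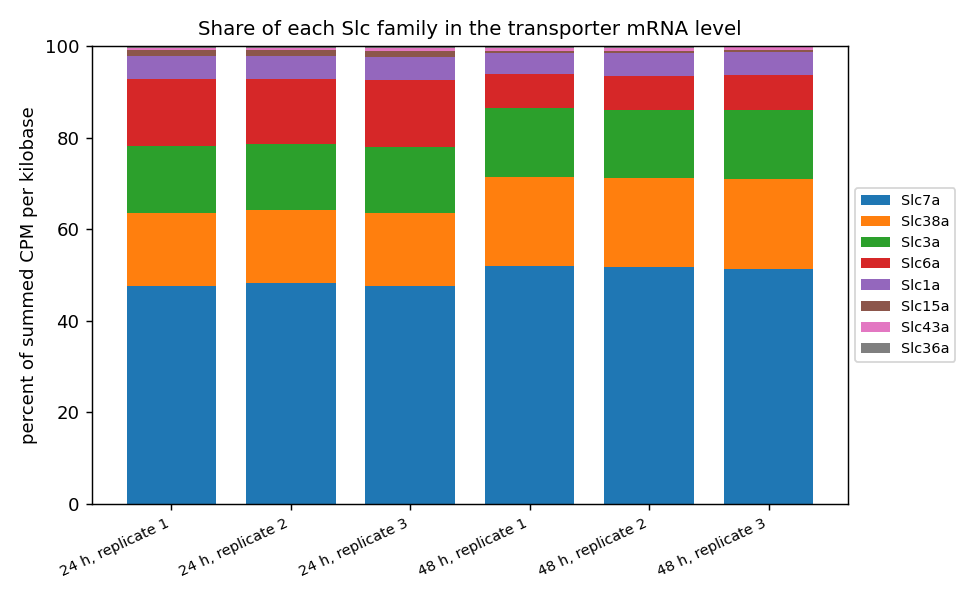
Share of each Slc family in the summed CPM per kilobase of all 66 transporter genes, for each of the 6 libraries (stacked bars that add to 100%). The Slc6a share is 14.3% to 14.6% in the 24 h libraries and 7.42% to 7.63% in the 48 h libraries, while the Slc38a share is 15.8% to 15.9% and 19.4% to 19.8%.

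In percentage points the shares of the other families moved less. Slc15a, a small family, fell further in proportion, from 1.32% ± 0.0336 to 0.452% ± 0.0205. Slc7a held 47.9% ± 0.336 at 24 h and 51.6% ± 0.409 at 48 h, and Slc38a held 15.9% ± 0.062 and 19.5% ± 0.212 (SD, n = 3). The summed level of all 66 genes was 639.6, 633.3 and 633.7 CPM per kilobase at 24 h and 682.7, 677.2 and 674.4 CPM per kilobase at 48 h. Shares within a sum depend on each other, so a decrease in Slc6a raises the shares of the rest.

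The Slc1a family held the transporter with the largest increase. Slc1a3 (ENSMUSG00000005360), a sodium-coupled glutamate and aspartate carrier best known from astrocytes and radial glia, had 4.91, 5.66 and 3.94 CPM at 24 h and 14.8, 18.2 and 16.6 CPM at 48 h, a 3.45-fold increase (log2 ratio 1.78 ± 0.12, adjusted p = 9.93e-10). Of the 6 neural markers, 5 had a higher mean at 48 h, among them Sox1 (14.7 and then 36.6 CPM) and Pax6 (11.6 and then 33.9 CPM). The most abundant of them, Tubb3, had a lower one (78.2 and then 54.3 CPM). The part of neural cells in the rise of Slc1a3 was not tested. The related glutamate carrier Slc1a1 fell from 2.75 ± 0.398 to 0.685 ± 0.287 CPM (SD, n = 3), or from 58.3 to 15 counts on average (log2 ratio -1.99 ± 0.26, adjusted p = 5.16e-06).

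The neutral exchangers of the family changed less, and in opposite directions. Slc1a5 (ENSMUSG00000001918), a major route of glutamine uptake, had 95.8, 93.5 and 94.4 CPM at 24 h and 79.9, 81.9 and 77.7 CPM at 48 h, without overlap (log2 ratio -0.24 ± 0.03, adjusted p = 2.85e-06). Slc1a4 rose from 31.6 ± 0.332 to 44.2 ± 2.88 CPM (0.48 ± 0.05, adjusted p = 2.25e-07).

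The largest change of any transporter was that of the proton-coupled peptide carrier Slc15a1 (ENSMUSG00000025557), best known from the intestine, where it takes up di- and tripeptides. Its level was 29.4, 27.3 and 29.9 CPM in the 24 h libraries and 2.35, 2.1 and 2.03 CPM in the 48 h libraries, on 617.3 and 47.3 counts on average, a 13.3-fold decrease. Slc15a2, its high-affinity relative, fell from 2.66 ± 0.236 to 1.63 ± 0.0371 CPM (SD, n = 3; log2 ratio -0.71 ± 0.18, adjusted p = 0.0024). Slc15a4, a peptide and histidine carrier of lysosomes, had 11.9, 11.1 and 10.6 CPM at 24 h and 13.3, 12.2 and 12.3 CPM at 48 h, which did not overlap but did not pass the test (log2 ratio 0.17 ± 0.08, adjusted p = 0.0756). At 48 h Slc15a4 was thus the highest member of its family per kilobase, at 2.37 against 0.442 for Slc15a1, whereas at 24 h the values were 2.11 and 5.91.

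The tested genes of the Slc36a family changed by the same size in opposite directions. Slc36a1 (ENSMUSG00000020261), which exports small neutral amino acids from lysosomes, fell from 15.8, 13.8 and 15.9 CPM to 9.3, 9.37 and 8.89 CPM (log2 ratio -0.72 ± 0.08, adjusted p = 1.15e-06). Slc36a4 rose from 2.6 ± 0.223 to 4.28 ± 0.53 CPM (0.72 ± 0.15, adjusted p = 0.000431). The counts of Slc36a1 were not whole numbers, so some of its reads were divided with similar sequence elsewhere. Those of the other tested transporters were whole.

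The Slc43a family consists of facilitated carriers, of which Slc43a1 and Slc43a2 take large neutral amino acids. Slc43a2 (ENSMUSG00000038178) had 16.4, 17.3 and 16.5 CPM at 24 h and 23.8, 25.4 and 21.2 CPM at 48 h (log2 ratio 0.49 ± 0.07, adjusted p = 1.58e-05). Slc43a1 rose from 6.69 ± 0.196 to 10.3 ± 1.47 CPM (0.63 ± 0.11) and the purine carrier Slc43a3 from 1.5 ± 0.25 to 2.61 ± 0.286 CPM (0.79 ± 0.19, adjusted p = 0.00202). Slc43a1 and Slc43a3 lie on the same strand at chr2:84838850-84863594 and chr2:84936579-84958509.

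Of the 37 tested transporters 10 overlap, in annotated exons, a GENCODE M21 gene of the other strand. Whether counting used strand is not given in the sources used here, so their counts can include reads of that gene. They are Slc1a1, Slc6a6, Slc6a9, Slc7a2, Slc7a4, Slc7a7, Slc15a4, Slc38a9, Slc38a10 and Slc43a2.

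Genes around the transporters were followed in 5 lists, to be read against the 62.8% of all tested genes that changed (30.9% higher and 31.9% lower). In the amino acid response (genes switched on through the kinase GCN2 and ATF4 when amino acids are short), 24 of 25 genes were tested, 8 rose, 10 fell (75% changed, background 62.8%) and the median log2 ratio was -0.08. Atf4 itself had 403.5 ± 7.07 and 405.8 ± 5.86 CPM (SD, n = 3; log2 ratio 0.01 ± 0.02, adjusted p = 0.745), though with library size as the only scaling it was -0.05 (adjusted p = 0.0281). Asns, which makes asparagine, fell from 734.3 ± 5.84 to 487.2 ± 3.03 CPM (log2 ratio -0.59 ± 0.02, adjusted p = 9.88e-15), and Trib3 and Gdf15 fell by 0.25 and 0.39 on the log2 scale. Sesn2, the leucine sensor, rose by 0.20, Stc2 by 0.77 and Ddit4, an inhibitor of mTORC1, from 40.5 ± 3.88 to 69.8 ± 1.89 CPM (0.78 ± 0.05). Ddit3 was at 3.51 ± 0.43 and 2.74 ± 0.313 CPM and did not pass the test (adjusted p = 0.0568), though it did with library size as the only scaling (log2 ratio -0.42, adjusted p = 0.028). Transporters known as targets of this response went both ways. Slc38a2 and Slc7a11 rose, while Slc7a1, Slc7a5 and Slc1a5 fell (log2 ratios -0.26, -0.07 and -0.24). In the list Sesn2, Stc2 and Ddit4 rose, while Asns, Trib3 and Gdf15 fell. Both the list and the transporters held genes of either direction.

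In amino acid sensing by mTORC1, all 35 listed genes were tested, 13 rose, 11 fell (68.6% changed, background 62.8%) and the median log2 ratio was 0.01. The Rag GTPase genes Rragb and Rragd, whose products recruit mTORC1 to the lysosome, both rose. The other Rag genes, Rraga and Rragc, are named after their values were seen. Rraga had means of 78.4 and 78.1 CPM (log2 ratio -0.01, adjusted p = 0.869), and Rragc rose by 0.21. Rragb had 17.4 ± 0.474 and then 41.6 ± 2.04 CPM, and Rragd had 23.1 ± 1.98 and then 51.2 ± 0.557 CPM (SD, n = 3; log2 ratios 1.26 ± 0.05 and 1.15 ± 0.05). The third gene of the list that rose at least 2-fold was Sesn3, named after its value was seen, at 1.11. Castor1, the cytosolic arginine sensor, rose from 26.4 ± 1.9 to 36 ± 1.34 CPM (0.45 ± 0.05). The genes of the list that fell most were Fnip1 and Sesn1, with log2 ratios of -0.47 and -0.43.

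Among 25 listed enzymes of amino acid metabolism 24 were tested, 5 rose (background 30.9%), 13 fell (background 31.9%) and the median log2 ratio was -0.20. In all 75% of them changed, beside 62.8% of all genes. Tdh, the threonine dehydrogenase of mouse embryonic stem cells, fell from 234.8 ± 6.97 to 53.3 ± 3.61 CPM (SD, n = 3; log2 ratio -2.14 ± 0.04, adjusted p = 5.72e-17). Ass1, of arginine synthesis, fell from 228.4 ± 5.15 to 89.3 ± 3.56 CPM (-1.35 ± 0.03), and Bcat1, which transaminates branched-chain amino acids, had a log2 ratio of -0.55. The counts of Tdh, Ass1 and Odc1 were fractional. Odc1, the ornithine decarboxylase of polyamine synthesis, rose from 607.9 ± 5.12 to 838.8 ± 5.27 CPM (0.46 ± 0.02), and Prodh rose by 0.31 (adjusted p = 0.0139), a call that was lost without replicate 1 of 48 h (0.19, adjusted p = 0.1).

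All 20 cytosolic aminoacyl-tRNA synthetase genes, whose enzymes load amino acids onto tRNA, were tested. Of these 9 rose and 5 fell (70% changed, background 62.8%), with a median log2 ratio of 0.03 and a median size of 0.10. With changes this small the count depended on the processing. It was 14 here, 12 with DESeq2 and 18 with library size as the only scaling. Vars and Farsb rose by 0.28 and 0.25, and Qars and Nars had log2 ratios of -0.43 and -0.10. Of 19 amino acid carriers outside the 8 families 13 were tested, 3 rose and 4 fell (53.8% changed, background 62.8%), with a median log2 ratio of 0.07. The mitochondrial serine carrier Sfxn1 rose from 66.9 ± 1.85 to 95.9 ± 0.722 CPM (SD, n = 3; 0.52 ± 0.03) and the mitochondrial glycine carrier Slc25a38 by 0.21. The call for Slc25a38 did not hold with library size as the only scaling (0.15, adjusted p = 0.0503). It was also lost when replicate 1 of 24 h was left out, at 0.14 (adjusted p = 0.0542). Mfsd12, needed for cysteine import into lysosomes and melanosomes, and the mitochondrial aspartate and glutamate carrier Slc25a13 fell, with log2 ratios of -0.94 ± 0.08 and -0.42 ± 0.02. Exons of Mfsd12, Ddit3, Tdh, Bcat1 and Farsb overlap a gene of the other strand.

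**Figure D5:**
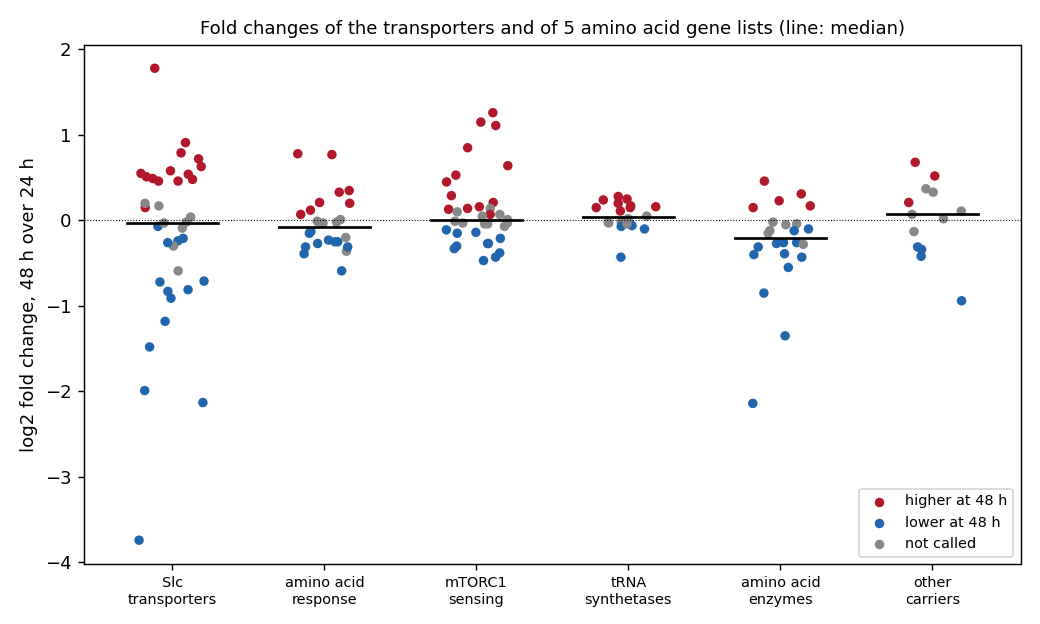
Log2 ratio (48 h over 24 h) of 36 of the tested Slc transporters and of each tested gene in 5 lists of amino acid genes, coloured by the call, with the median as a line. The medians lie between -0.20 and 0.07, and the spread is smallest for the tRNA synthetases, with a median size of 0.10 against 0.55 for the transporters.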

How the data were processed

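The members and gene lists were chosen with earlier results of these data known. The authors deposited estimated counts per gene from RSEM, not scaled for depth or length. Per the submitters' processing notes, cutadapt 1.9.1, STAR 2.5.2, RSEM 1.3.0 and GRCm38 were used; the annotation and the use of strand are not given in the sources used here. Symbols came from GENCODE M21 and matched 51633 of 51912 identifiers. All 6 columns matched a sample title.

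Counts were rounded, filtered with filterByExpr (minimum count 10), scaled by TMM and tested on the whole table with edgeR 4.0.16 (quasi-likelihood; R 4.3.3), with Benjamini-Hochberg adjustment over 14889 genes and a threshold of 0.05. Standard errors are the size of the log2 ratio divided by the square root of F. The test was run on simulated data with 200 changed genes. In the real data 9345 genes were called, so the simulation does not cover change on that scale. Genes given in full were members with a mean of at least 5 CPM, a call and at least a 2-fold change, the highest member of each family per kilobase, and 6 fixed ones; in each list, the 2 called genes above that level that rose most and the 2 that fell most, and 8 fixed ones. Slc7a1, Slc7a3, Slc7a7 and Slc15a4 were also given in every library, outside this rule and with their fold changes known. Libraries held 19574969 to 23133148 counts. Alternatives were other scalings, filters, DESeq2 1.42.0, unrounded counts, a threshold of 0.01, the replicate number as a block and leaving out each library. The values of 1 gene are not reported here, though it counts in all totals.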

Additional observations from a re-analysis of the deposited data

How the results depend on the processing

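All 29 changed transporter genes kept their direction and call in each of the 14 alternatives that tested them, and 28 were tested in all. The exception, Slc7a4, was not tested where 10 counts were required of every library. The count of changed transporters was 29 to 31. Of the 8 transporters that were not called, 4 (Slc7a2, Slc7a6, Slc38a7 and Slc38a9) gained a call in some alternative. Among the transporters and named list genes, the sign reversed in some alternative for 3 genes, none of them called above. Slc38a3 became -0.02 and Atf4 -0.05 when libraries were scaled by size only. Leaving out each library in turn took Slc38a3 from -0.33 to 0.26, Atf4 from -0.01 to 0.02 and Slc38a6 from -0.05 to 0.03. That scaling shifted the median of all tested genes from -0.01 to -0.07 and that of the Slc36a family from 0.0 to -0.06. With every gene that had a count tested, low genes joined the families, and the median of Slc36a became -0.73, that of Slc15a went from -0.71 to 0.12 and that of Slc3a from 0.15 to -0.32. With the replicate block 29 transporters changed. Deviations of same-numbered libraries from their group means correlated at -0.0458, -0.0427 and -0.00852, which gives no sign of pairs. With 3 libraries per time this check cannot exclude that libraries of the same number shared a culture or batch. The filter left 29 of the 66 genes untested, and low depth and low expression cannot be told apart for them. The causes of these shifts were not tested.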
